A study of Mus musculus with 15 samples.

Results

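The 37 genes described here encode the machinery of autophagy and of the lysosome. They were chosen by name, with earlier results of these data known, so counts over them are descriptive. Each was found by symbol in the array's probe annotation, and its brightest single-symbol probe set was taken. All 37 were measured and all passed the filter on low signal, out of 19937 genes with such a probe set and 12102 genes tested. They comprise 18 autophagosome genes, 17 lysosome genes (membrane proteins, hydrolases and their cofactors) and the transcription factors Tfeb and Tfe3.

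Left-ventricular cardiomyocytes were taken from adult male C57Bl/6NT mice, 8 to 9 months old, after whole-body exposure to 90 cGy of 1 GeV protons or after sham handling, and total RNA was hybridised to expression arrays. The proton groups were day 1 (2 arrays), day 3 (3 arrays), day 5 (3 arrays), day 12 (2 arrays) and day 26 (2 arrays), and the sham group had 3 arrays, from 2 day 1 samples and 1 day 3 sample. Days are those of the sample titles, since the series' design text gives other days for the last 3 times. The same text includes an iron-ion arm that was not analysed here. Collagenase digestion and stepwise return of calcium yield mostly calcium-tolerant cardiomyocytes, and the labels allow for some inflammatory and endothelial cells in the suspension.

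Of 11 cardiomyocyte markers, 11 passed the filter, and their mean log2 signal lay between 11.97 and 12.09 in every sample. Day 5 replicates 1 and 2 had nearly identical values: the SD of their log2 differences over the genes tested was 0.0768, against 0.222 to 0.527 for the other pairs of arrays. They were averaged and counted as 1 sample, which leaves 14 samples. The labels do not say whether arrays of a group came from separate mice, so p-values measure only the spread between these samples. Each day was compared with the same 3 sham samples, so the day comparisons are not independent of each other.

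Autophagy delivers cytoplasmic material to the lysosome. A kinase complex built on Ulk1 starts the process, a lipid kinase complex marks the membrane, ubiquitin-like conjugation attaches Atg8-family proteins to the growing autophagosome, and the closed vesicle fuses with a lysosome whose acid hydrolases break down its content. In the heart this pathway clears damaged mitochondria and protein aggregates, and inherited loss of the lysosomal proteins Lamp2 or Gaa causes cardiomyopathy in humans. Tfeb and Tfe3 are basic helix-loop-helix factors that bind the palindrome CACGTG in promoters of many lysosomal genes.

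The letters CACGTG, which read the same on both strands, were searched in the 250 bases before the transcription start in RefSeq promoters (GRCm38.p6). An entry was found for 31 of the 37 genes, and 10 of them (32.3%) held the motif, against 6.86% of 27025 genes with an entry and 9.88% of 9687 genes tested with an entry. It was present in 7 of 15 lysosome genes (46.7%), in 3 of 14 autophagosome genes (21.4%) and in 0 of 2 transcription factor genes. The longer form TCACGTG, which contains the shorter one, was present in 6 of 15 lysosome genes (40%) and 2 of 14 autophagosome genes (14.3%), against 5.61% of genes tested. The windows below are shown because Ctsd, Gaa and Mcoln1 had the lowest p for the mean of the proton days among the lysosome genes with the motif, and Lamp1 the most copies. Capitals mark CACGTG.
Lamp1: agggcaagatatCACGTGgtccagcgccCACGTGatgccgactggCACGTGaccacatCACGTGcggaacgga
Mcoln1: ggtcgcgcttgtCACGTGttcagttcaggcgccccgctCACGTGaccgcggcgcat
Ctsd: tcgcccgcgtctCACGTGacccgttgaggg
Gaa: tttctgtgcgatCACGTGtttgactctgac
The Lamp1 window lies at chr8:13159088-13159160 on the plus strand and holds 4 copies, 61 to 15 bases before the start. Mcoln1 has 2 copies at chr8:3500436-3500491 on the plus strand, 71 and 45 bases before the start. The Ctsd window is chr7:142387908-142387937 on the minus strand with its copy 98 bases before the start, and another copy lies 245 bases before it. The Gaa window, 140 bases before the start, is chr11:119267811-119267840 on the plus strand. Matches were also present in Ctsa, Ctsl, Gla, Atg3, Atg5 and Atg7 and are not printed. Starts are those of RefSeq entries, and a gene counted as holding the motif if any of its entries did. Of the 31 genes, 4 had several entries. In 4 of the 10 genes (Atg5, Atg7, Ctsa and Ctsl) the match lies inside the annotated span of the gene. A match wholly outside that span was present in 5 of 15 lysosome genes (33.3%) and 1 of 14 autophagosome genes (7.14%), against 6.43% of genes tested with an entry. A match describes the letters only. Lysosome genes with the motif had a median log2 difference of 0.15 (n = 7, range 0.06 to 0.30) between the mean of the proton days and sham, and those without it had 0.15 (n = 8, range 0.09 to 0.23).

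Lysosome genes as a group lay slightly above sham in the proton samples, although no single gene passed the test. Autophagosome genes lay around sham, and slightly below it on days 5 and 26. For the mean of the 5 proton days minus sham, 17 of 17 lysosome genes had a positive log2 difference, with a median of 0.15 and a range of 0.06 to 0.35, against 7 of 18 autophagosome genes with a median of -0.04. Over all genes tested the median was 0.01 and 53.3% were positive. The differences were small, and 0 of the 37 genes passed an adjusted p of 0.05 in any comparison. The lowest adjusted p in limma was 0.145, for Ctsd on day 26. Calls were rare over the whole array as well: 0% of genes on day 1, 0.00826% on day 3, 0.0496% on day 5, 0% on day 12, 0.0413% on day 26 and 0.0248% for the mean of the days.

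**Figure D1:**
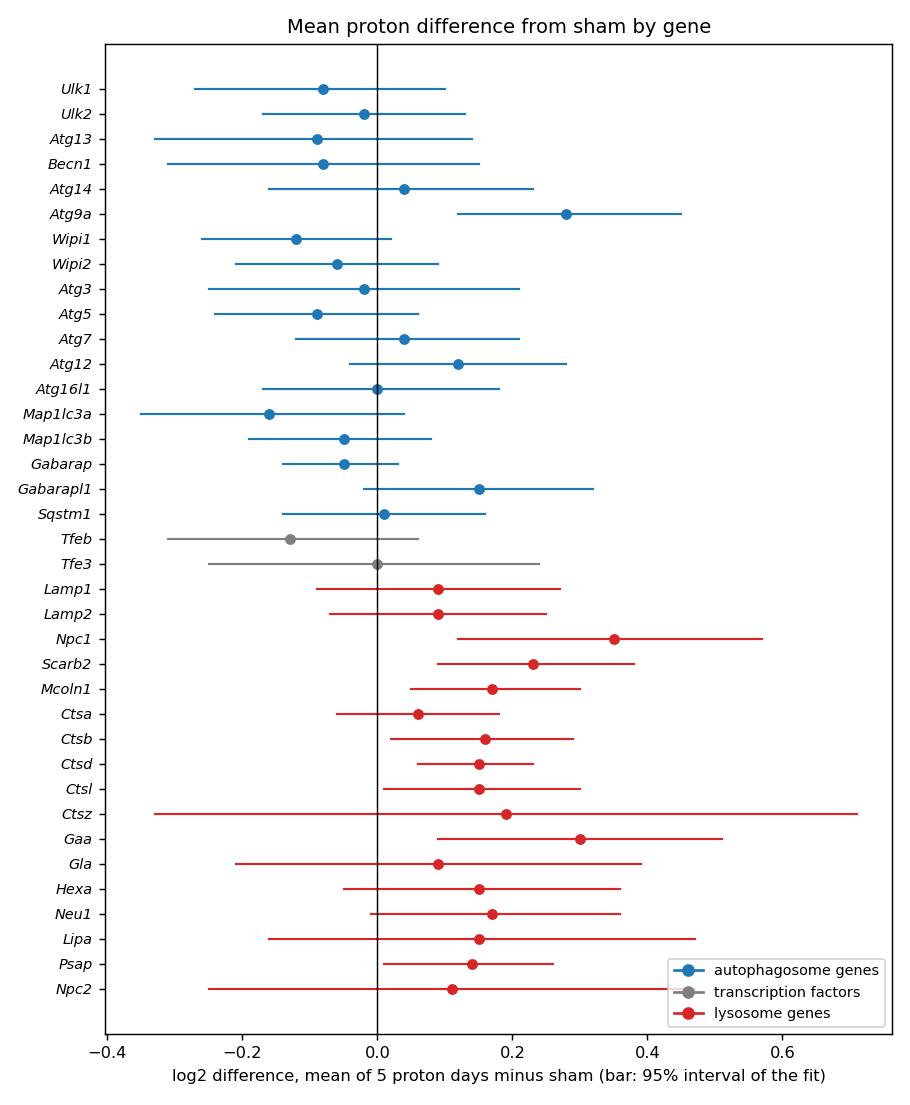
Log2 difference between the mean of the 5 proton days and sham for each gene, with the 95% interval of the limma fit (11 proton and 3 sham samples). All 17 lysosome genes (red) lie right of 0, from 0.06 to 0.35, while the 18 autophagosome genes (blue) scatter around 0 with Atg9a at 0.28.

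By day, the lysosome median was 0.18 on day 1, 0.12 on day 3, 0.12 on day 5, 0.15 on day 12 and 0.13 on day 26, all as log2 differences from sham. The number of the 17 genes above sham was 17, 15, 17, 17 and 14 on those days, against 48.3%, 51%, 51.2%, 51.9% and 58.8% of all genes. At an unadjusted p under 0.05, 3, 8, 1, 4 and 6 of the 17 were higher, against 2.55%, 6.29%, 4.21%, 3.39% and 8.6% of all genes. For the mean of the days this count was 8 of 17, against 6.19% of all genes, and 0 of the 37 genes were lower, against 5.86%. None of the 17 was lower at that level on any day, against 2.96%, 2.57%, 4.78%, 4.62% and 5.67% of all genes. Every sample of the day lay above every sham sample for 8, 5, 6, 5 and 5 of the 17, against 14.2%, 8%, 16.8%, 9.92% and 24.7% of all genes, so by day 26 such separation was common across the array. In the F-test over all proton days 3 of 17 had an unadjusted p under 0.05, against 9.54% of all genes. The day 12 median was 0.32 without its replicate 1 and 0.00 without its replicate 2. Sham replicate 2 also moved the medians: without it they were 0.25 on day 1, 0.18 on day 3, 0.16 on day 5 and 0.22 on day 26.

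Averaged over the 17 lysosome genes, each sample's log2 deviation from the sham mean was 0.13 and 0.24 on day 1, 0.10, 0.06 and 0.32 on day 3, 0.12 and 0.16 on day 5, 0.04 and 0.35 on day 12, and 0.16 and 0.11 on day 26, against -0.04, 0.12 and -0.08 in sham. All 11 proton samples lay above 0, but sham replicate 2 sat within their range, so the groups overlapped. The same average over the 18 autophagosome genes stayed between -0.07 and 0.08 in proton samples and between -0.02 and 0.01 in sham samples. Every sample of the day lay below every sham sample for 3, 2, 8, 1 and 6 of the 18 autophagosome genes from day 1 to day 26, against 14.9%, 4.39%, 15.8%, 11.2% and 14.1% of all genes. Across 27 alternative fits the autophagosome median was -0.11 to -0.04 on day 5 and -0.18 to -0.03 on day 26. In those fits 3 to 7 of the 18 genes were above sham on day 5 and 3 to 8 on day 26. In the main fit 51.2% and 58.8% of all genes were. Pooled SDs within groups were 0.122 for the lysosome average and 0.0386 for the autophagosome average, so lysosome genes also varied more between samples of a group.

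Late and early days differed little for the lysosome genes. The difference was taken as days 12 and 26 minus days 1 and 3, leaving out day 5. By this measure 8 of 17 lysosome genes and 4 of 18 autophagosome genes had positive differences, against 56.8% of all genes. At an unadjusted p under 0.05 this comparison gave 0 lysosome genes, and 4 autophagosome genes: Atg12 and Gabarapl1 were higher late (6.86% of all genes were) and Atg13 and Atg16l1 lower (6.38% of all genes were).

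**Figure D2:**
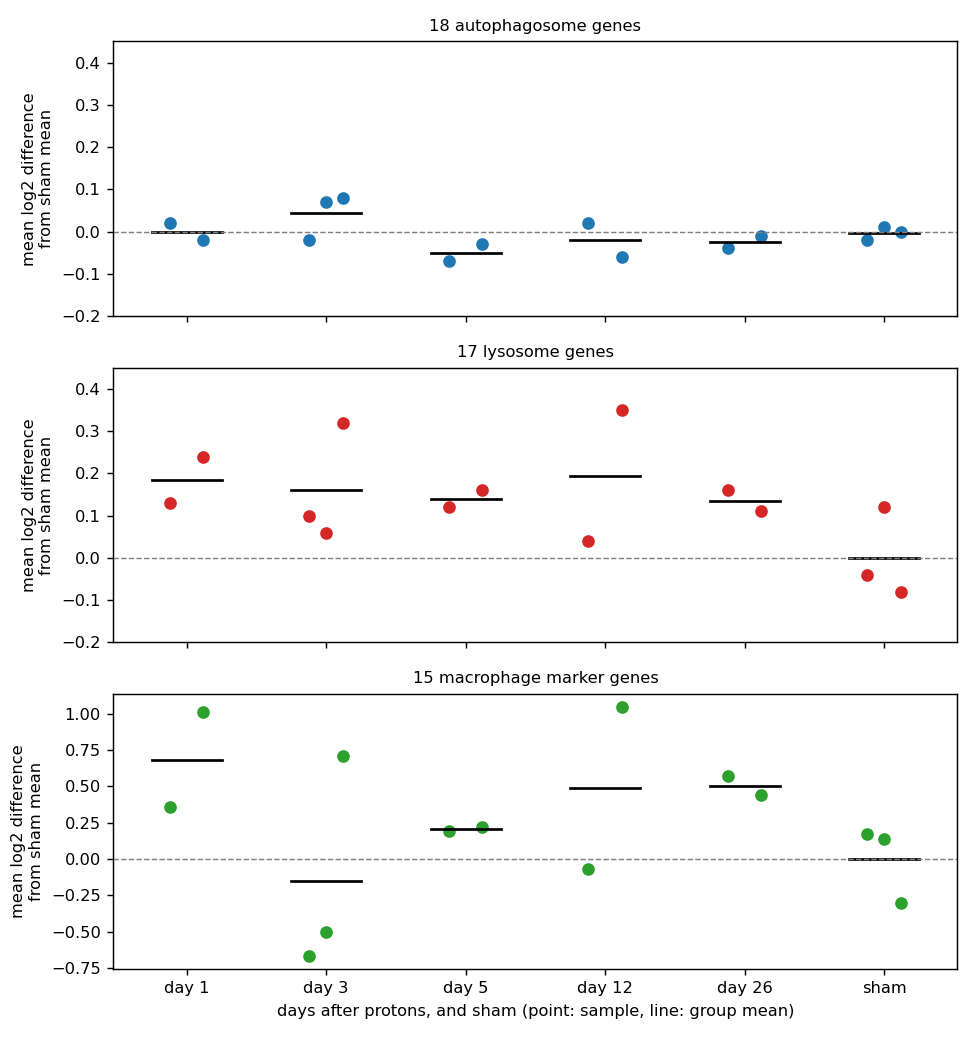
Mean log2 difference from the sham mean over 18 autophagosome genes (top), 17 lysosome genes (middle) and 15 macrophage marker genes (bottom) in each sample; points are samples and lines are group means, and the bottom panel has a wider scale. The highest lysosome averages belong to the samples with the highest macrophage averages: day 12 replicate 2 (0.35 and 1.05), day 3 replicate 3 (0.32 and 0.71) and day 1 replicate 2 (0.24 and 1.01).

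Among the initiation genes, Ulk1 and Ulk2, the kinases that start autophagosome formation, and Atg13, their scaffold, had log2 differences of -0.08, -0.02 and -0.09 for the mean of the days. Atg13 had log2 signals of 8.54 and 8.43 on day 1, 8.84, 8.83 and 8.67 on day 3, 8.29 and 8.40 on day 5, 8.22 and 8.10 on day 12 and 8.15 and 8.43 on day 26, against 8.60, 8.76 and 8.16 in sham. The 3 day 3 samples were the highest of the proton samples, and the sham samples alone spanned most of the range. Between days 12 and 26 together and days 1 and 3 together, Atg13 differed by -0.41 ± 0.11 (SE), with an adjusted p of 0.2. This was the lowest adjusted p of the 37 genes in that comparison, in which 0.00826% of genes were called. Ulk1 on day 1 was 7.76 and 7.85, below sham at 7.95, 8.19 and 8.06 (log2 difference -0.26 ± 0.12, adjusted p = 0.754).

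Nucleation depends on Becn1 and Atg14, subunits of the lipid kinase complex. Becn1 was 7.14 and 7.34 on day 5 and 7.43 and 7.25 on day 26, both below the sham samples at 7.46, 7.44 and 7.73. The differences were -0.31 ± 0.15 (adjusted p = 0.584) and -0.20 ± 0.15 (adjusted p = 0.525), and on the other days the groups overlapped. Atg14 differed from sham by between -0.05 and 0.12 on the 5 days.

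Atg9a, the membrane protein of the vesicles that seed the autophagosome, had the largest difference for the mean of the days among the autophagosome genes. Its log2 signal was 8.15 and 8.28 on day 1, 8.29, 8.25 and 8.12 on day 3, 8.27 and 8.31 on day 5, 8.11 and 8.21 on day 12 and 8.06 and 8.27 on day 26, against 7.88, 8.08 and 7.82 in sham. Every proton sample except day 26 replicate 1 was above every sham sample. The mean of the days exceeded sham by 0.28 ± 0.08, which is 1.22-fold (adjusted p = 0.267). The phosphoinositide-binding proteins Wipi1 and Wipi2, which sit on the nascent membrane, had differences of -0.12 ± 0.06 and -0.06 ± 0.07.

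The conjugation enzymes attach Atg8-family proteins to lipid: Atg7 activates them, Atg3 transfers them, and the complex of Atg12, Atg5 and Atg16l1 places them on the membrane. Atg12 on day 26 was 9.08 and 9.03, above sham at 8.69, 8.91 and 8.71 (0.28 ± 0.10, adjusted p = 0.26). Atg5 on day 5 was 6.72 and 6.56, below sham at 6.84, 6.87 and 6.90 (-0.23 ± 0.09, adjusted p = 0.512). Neither difference passed the threshold, and on each other's days Atg12 differed by 0.08 (day 5) and Atg5 by -0.07 (day 26). For the mean of the days, Atg3, Atg7 and Atg16l1 differed by -0.02, 0.04 and 0.00.

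Atg8-family proteins coat the autophagosome and dock cargo receptors. Gabarapl1 was 8.97 and 8.81 on day 1, 9.10, 9.21 and 9.51 on day 3, 9.15 and 9.21 on day 5, 9.17 and 9.33 on day 12 and 9.28 and 9.32 on day 26, against 9.01, 9.04 and 9.04 in sham. It lay below sham on day 1 and above it on each later day, without overlap, and the difference was largest on day 26 (0.27 ± 0.11, adjusted p = 0.297). Among the 5 proton days its F-test gave an adjusted p of 0.531, and 0% of genes were called in that test while 8.43% had an unadjusted p under 0.05. For Map1lc3a the signals were 9.89 and 9.76 on day 1, 9.81, 9.89 and 9.52 on day 3, 9.67 and 9.78 on day 5, 9.89 and 9.52 on day 12 and 9.58 and 9.81 on day 26, against 9.97, 9.84 and 9.87 in sham. It lay below sham on days 5 and 26 and overlapped on the others. Map1lc3a and Gabarap had mean differences of -0.16 ± 0.09 and -0.05 ± 0.04, and the cargo receptor Sqstm1 (p62) 0.01 ± 0.07. Sqstm1 had 10.55 and 10.32 on day 1, 10.57, 10.64 and 10.64 on day 3, 10.31 and 10.54 on day 5, 10.33 and 10.44 on day 12 and 10.56 and 10.47 on day 26, against 10.38, 10.41 and 10.60 in sham, with overlap on every day.

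Map1lc3b, the protein commonly used to count autophagosomes, was the only 1 of the 37 genes with a second single-symbol probe set, and the 2 disagreed. The brighter one had 10.41 and 10.29 on day 1, 10.15, 10.42 and 10.34 on day 3, 10.22 and 10.18 on day 5, 10.30 and 10.11 on day 12 and 10.40 and 10.32 on day 26, against 10.35, 10.28 and 10.38 in sham. It overlapped with sham on every day but day 5 and had a mean difference of -0.05 ± 0.06. The dimmer one, probe set 10419354, was 7.01 and 6.86 on day 1, 6.89, 7.11 and 7.02 on day 3, 7.25 and 7.13 on day 5, 6.46 and 6.62 on day 12 and 6.48 and 7.09 on day 26, against 7.68, 7.94 and 7.67 in sham. All 11 proton samples were below all 3 sham samples, as for 0.909% of genes tested. With each of 13155 probe sets above the filter tested on its own, a fit added after these values were seen, it fell by 0.87 ± 0.12 on the log2 scale (adjusted p = 0.033), 1 of 4 probe sets called. Leaving out any 1 of the 15 arrays kept the difference between -0.93 and -0.78, with adjusted p from 0.0071 to 0.174 and under 0.05 in 8 of the 15 fits. It exceeded 0.05 whenever a sham array was left out. The annotation gives both probe sets the same gene, and RefSeq also lists the pseudogenes Gm11949 and Gm12727 under Map1lc3 names. Which transcript each probe set reads is not given in the sources used here, so this value is uncertain as a measure of Map1lc3b.

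Tfeb had a mean difference of -0.13 ± 0.08 (adjusted p = 0.532) and Tfe3 of -0.00 ± 0.11. At day 12 Tfeb was 6.47 and 6.31, below sham at 6.49, 6.69 and 6.67 (-0.23 ± 0.12, adjusted p = 0.62). Arrays measure the mRNA of these factors and not their entry into the nucleus, on which their activity depends.

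**Figure D3:**
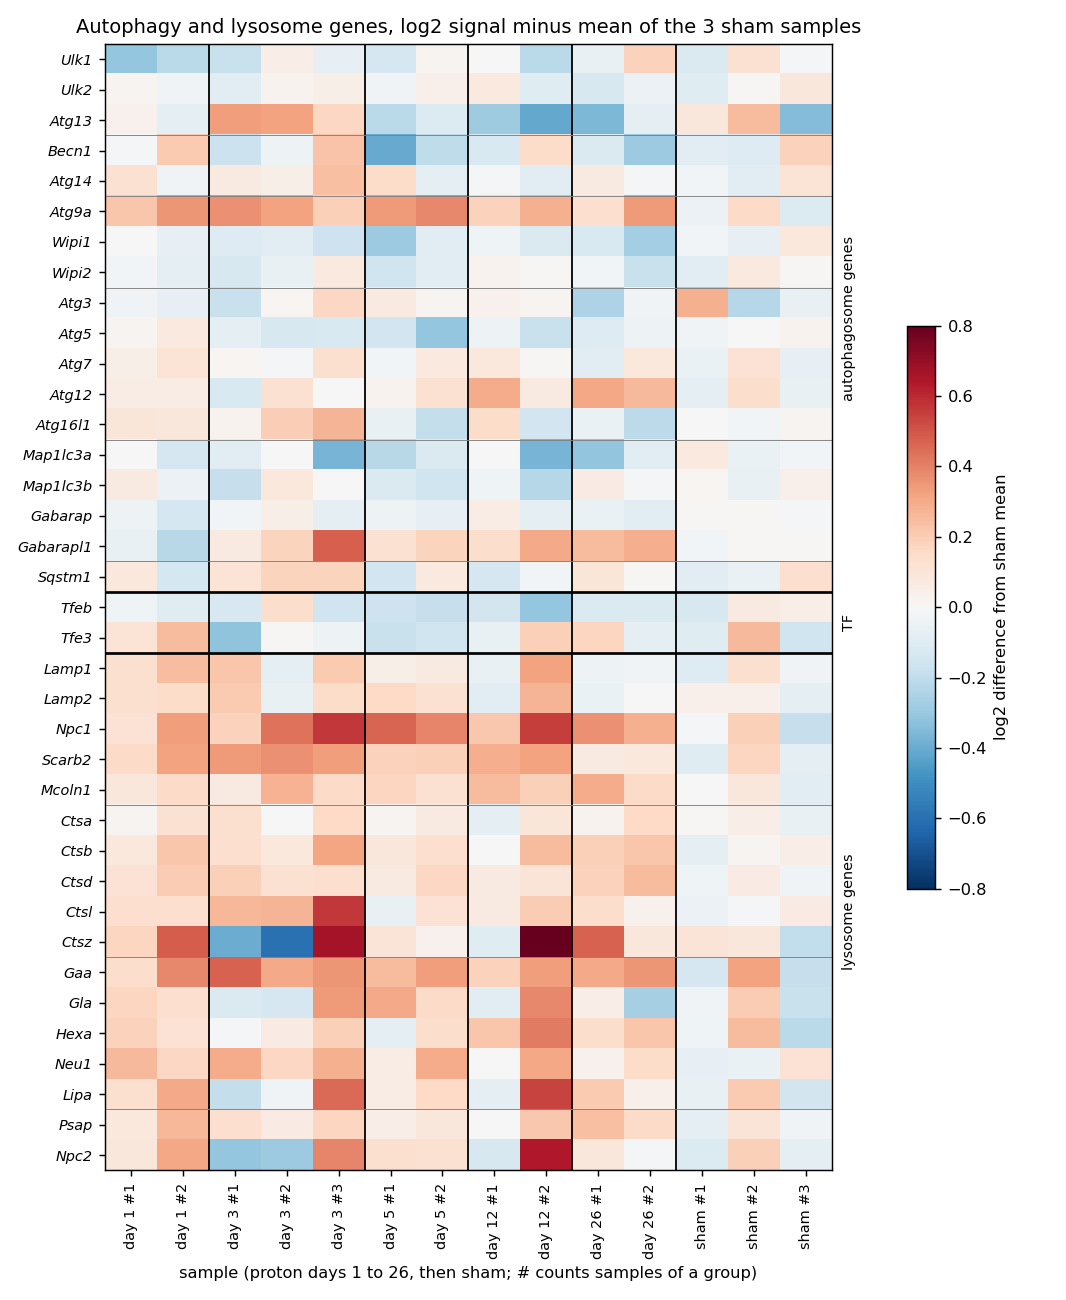
Log2 signal of each of the 37 genes minus its mean in the 3 sham samples, for 14 samples; columns run from proton day 1 to day 26 and then sham, rows follow the roles in the pathway, and the colour scale runs from -0.8 (blue) to 0.8 (red). Reds dominate the lysosome rows in proton columns, with Ctsz, Lipa and Npc2 alternating between low (day 3 #1 and #2) and high (day 3 #3, day 12 #2), and Atg9a is the reddest autophagosome row.

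Of the lysosomal membrane proteins, Npc1, which exports cholesterol from the lysosome, had log2 signals of 8.21 and 8.43 on day 1, 8.28, 8.53 and 8.66 on day 3, 8.56 and 8.49 on day 5, 8.31 and 8.65 on day 12 and 8.46 and 8.38 on day 26, against 8.09, 8.29 and 7.91 in sham. Days 5, 12 and 26 did not overlap with sham. The mean difference was 0.35 ± 0.10, or 1.27-fold (adjusted p = 0.297). Scarb2, the carrier of glucocerebrosidase to the lysosome, was 8.76 and 8.93 on day 1, 8.95, 8.97 and 8.94 on day 3, 8.79 and 8.80 on day 5, 8.90 and 8.93 on day 12 and 8.68 and 8.69 on day 26, against 8.51, 8.78 and 8.53 in sham. Days 3, 5 and 12 lay wholly above sham, and day 26 did not. Its difference was 0.35 ± 0.08 on day 3 (adjusted p = 0.266) and 0.08 ± 0.09 on day 26 (adjusted p = 0.681), a contrast between days whose F-test gave an adjusted p of 0.666.

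Mcoln1, the calcium channel of the lysosomal membrane, was 9.57 and 9.63 on day 1, 9.55, 9.76 and 9.63 on day 3, 9.65 and 9.60 on day 5, 9.73 and 9.67 on day 12 and 9.78 and 9.63 on day 26, against 9.48, 9.57 and 9.39 in sham. Days 1, 5, 12 and 26 lay above all sham samples, day 1 by less than the printed digits show, and the mean difference was 0.17 ± 0.06 (adjusted p = 0.317). The abundant glycoproteins Lamp1 and Lamp2, which line the membrane, each differed by 0.09 on average, with day 26 at -0.04 and -0.03. Lamp1 had 10.33 and 10.45 on day 1, 10.42, 10.12 and 10.41 on day 3, 10.25 and 10.27 on day 5, 10.14 and 10.52 on day 12 and 10.16 and 10.17 on day 26, against 10.10, 10.33 and 10.17 in sham. Lamp2 had 10.59 and 10.61 on day 1, 10.67, 10.40 and 10.61 on day 3, 10.62 and 10.58 on day 5, 10.37 and 10.73 on day 12 and 10.41 and 10.46 on day 26, against 10.50, 10.50 and 10.38 in sham. In both genes day 1 lay above sham and day 26 overlapped with it, and within day 12 replicate 2 was the higher sample.

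Ctsd, the aspartic protease of the lysosome, was the only 1 of the 37 genes, by the probe set used for each, with every proton sample above every sham sample. It had 11.14 and 11.23 on day 1, 11.22, 11.15 and 11.16 on day 3, 11.10 and 11.19 on day 5, 11.10 and 11.13 on day 12 and 11.21 and 11.28 on day 26, against 10.99, 11.09 and 11.00 in sham. Of all genes tested 0.826% were above sham in this way. The lowest proton samples were within 0.01 of the highest sham sample to the printed digits. Its mean difference was 0.15 ± 0.04, or 1.11-fold (adjusted p = 0.273), and on day 26 it was 0.22 ± 0.06 (adjusted p = 0.145). With array weights in the fit the day 26 difference was 0.23 and the adjusted p 0.0389, and in that fit 2.55% of all genes were called on day 26, so 1 called gene of 37 is near the share of the whole array.

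Ctsl, a cysteine protease, was 10.11 and 10.11 on day 1, 10.24, 10.25 and 10.54 on day 3, 9.92 and 10.09 on day 5, 10.05 and 10.18 on day 12 and 10.12 and 10.01 on day 26, against 9.93, 9.96 and 10.04 in sham. Day 3 stood highest, and days 5 and 26 overlapped with sham. The day 3 difference was 0.37 ± 0.08, or 1.29-fold (adjusted p = 0.265). Of the other cathepsins, the cysteine protease Ctsb had 10.62 and 10.76 on day 1, 10.67, 10.62 and 10.85 on day 3, 10.63 and 10.67 on day 5, 10.54 and 10.79 on day 12 and 10.73 and 10.76 on day 26, against 10.46, 10.56 and 10.59 in sham. It lay above sham without overlap on every day but day 12, with a mean difference of 0.16 ± 0.06 (adjusted p = 0.378), and the carboxypeptidase Ctsa differed by 0.06 ± 0.06. Ctsz, another carboxypeptidase, varied most of the lysosome genes: 6.84, 6.64 and 7.90 on day 3 and 7.14 and 8.06 on day 12, against 7.34, 7.33 and 7.04 in sham. Its mean difference of 0.19 ± 0.24 was smaller than its SE.

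Gaa, the acid glucosidase that degrades lysosomal glycogen, was 9.17 and 9.41 on day 1, 9.50, 9.33 and 9.38 on day 3, 9.28 and 9.36 on day 5, 9.21 and 9.36 on day 12 and 9.33 and 9.38 on day 26, against 8.89, 9.35 and 8.84 in sham. Sham replicate 2 lay among the proton samples, and the other sham samples lay below all of them. The mean difference was 0.30 ± 0.10, or 1.23-fold (adjusted p = 0.317), and it was 0.46 without sham replicate 2 and 0.21 without sham replicate 3. The other glycosidases were the galactosidase Gla (0.09 ± 0.14), the hexosaminidase subunit Hexa (0.15 ± 0.10) and the sialidase Neu1 (0.17 ± 0.09). Hexa had its highest values on day 12, 8.11 and 8.30, against 7.85, 8.14 and 7.67 in sham (0.32 ± 0.13 on that day, adjusted p = 0.611). Neu1 was 7.25 and 7.16 on day 1 and 7.29, 7.16 and 7.28 on day 3, both above sham at 6.93, 6.94 and 7.11. The acid lipase Lipa differed by 0.15 ± 0.14, and the luminal cofactors Psap, precursor of the saposins, and Npc2, the soluble cholesterol carrier, by 0.14 ± 0.06 and 0.11 ± 0.17. Psap had 11.34 and 11.52 on day 1, 11.39, 11.32 and 11.43 on day 3, 11.31 and 11.35 on day 5, 11.26 and 11.47 on day 12 and 11.50 and 11.41 on day 26, against 11.18, 11.36 and 11.23 in sham, and only day 26 lay wholly above sham. Npc2 had 7.79 and 8.01 on day 1, 7.39, 7.41 and 8.09 on day 3, 7.83 and 7.82 on day 5, 7.57 and 8.34 on day 12 and 7.79 and 7.69 on day 26, against 7.59, 7.89 and 7.62 in sham. Its highest values were day 12 replicate 2, day 3 replicate 3 and day 1 replicate 2, and its lowest were the other day 3 samples.

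Markers of other cell types moved with part of the lysosome genes. The suspension can hold macrophages, which are rich in lysosomes, and in bulk RNA more cells of a type and more RNA per cell cannot be told apart. All 17 macrophage markers listed were found, and 15 passed the filter. Over all 17, mean log2 signals were 6.62 to 7.17 on day 1, 5.68 to 6.92 on day 3, 6.45 to 6.48 on day 5, 6.23 to 7.23 on day 12 and 6.70 to 6.80 on day 26, against 6.01 to 6.44 in sham. For the mean of the days, 14 of the 15 macrophage markers that passed, 11 of 12 endothelial markers and 11 of 11 fibroblast markers had positive differences. Their medians were 0.38, 0.24 and 0.51, and 0 were called. Other lists differed among themselves. Above the filter, 4 of 4 lymphocyte markers (median 0.86), 4 of 4 neutrophil markers (0.42), 5 of 6 smooth muscle and pericyte markers (0.11) and 1 of 1 adipocyte marker (0.10) had positive differences, against 0 of 3 erythroid markers (-0.27). Sham means of Jchain (4.11), Cd8b1 (4.31), Cd79a (4.95), Ltf (4.45) and Csf3r (4.87) lay below the filter level of 5.00. They passed only through higher proton values, so the filter largely fixed the sign of their differences. The lymphocyte averages that follow rest on the same 4 markers. The lymphocyte markers averaged 0.72 and 0.82 above the sham mean on day 1, -0.06, -0.57 and 0.66 on day 3, 1.30 and 1.09 on day 5, 0.67 and 1.58 on day 12 and 1.52 and 1.30 on day 26, against -0.14, 0.27 and -0.13 in sham. They lay above all sham samples on every day but day 3. The erythroid markers averaged -1.30 and -1.90 on day 26, against -0.65, 1.04 and -0.39 in sham. The part of these lists in the lysosome values was not tested. Of the markers found, 4 of 11 neutrophil, 4 of 6 lymphocyte, 6 of 7 smooth muscle and pericyte and 1 of 3 adipocyte markers passed the filter. Among those that failed, Ly6g, Mpo, Camp, Lep, Aif1 and Tcf21 had lower means in proton than in sham samples. The means of S100a8, Elane, Cxcr2, Ngp, Cd3g, Ms4a1, Adipoq, Cnn1 and Ccr2, which also failed, were higher.

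A score was formed per sample as the mean over the macrophage, endothelial and fibroblast lists, and each gene's slope on it was fitted within the 6 groups. Positive slopes were called for 7 of 17 lysosome genes and 0 of 18 autophagosome genes, against 13.9% of all genes. The steepest were Ctsz (0.95 ± 0.09 log2 units per unit of score, adjusted p = 3.99e-06), Npc2 (0.63 ± 0.08) and Lipa (0.53 ± 0.08), followed by Gla, Npc1, Ctsl and Ctsb between 0.44 and 0.19. Lysosome genes with slopes near 0 were Mcoln1 (0.01 ± 0.07), Ctsd (0.02 ± 0.05) and Scarb2 (0.05 ± 0.08). Among the 37 genes only Map1lc3a had a called negative slope (-0.31 ± 0.06, adjusted p = 0.00293), against 6.96% of all genes. Without replicate 1 or without replicate 2 of day 12 the count of 7 was 3 (Ctsz, Lipa and Npc2), and the share of all genes was 8.69% and 8.66%. The 11 cardiomyocyte markers had a median slope of -0.01, with a range of -0.08 to 0.38. Of these markers, 2 had a called positive slope and 0 a called negative one.

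**Figure D4:**
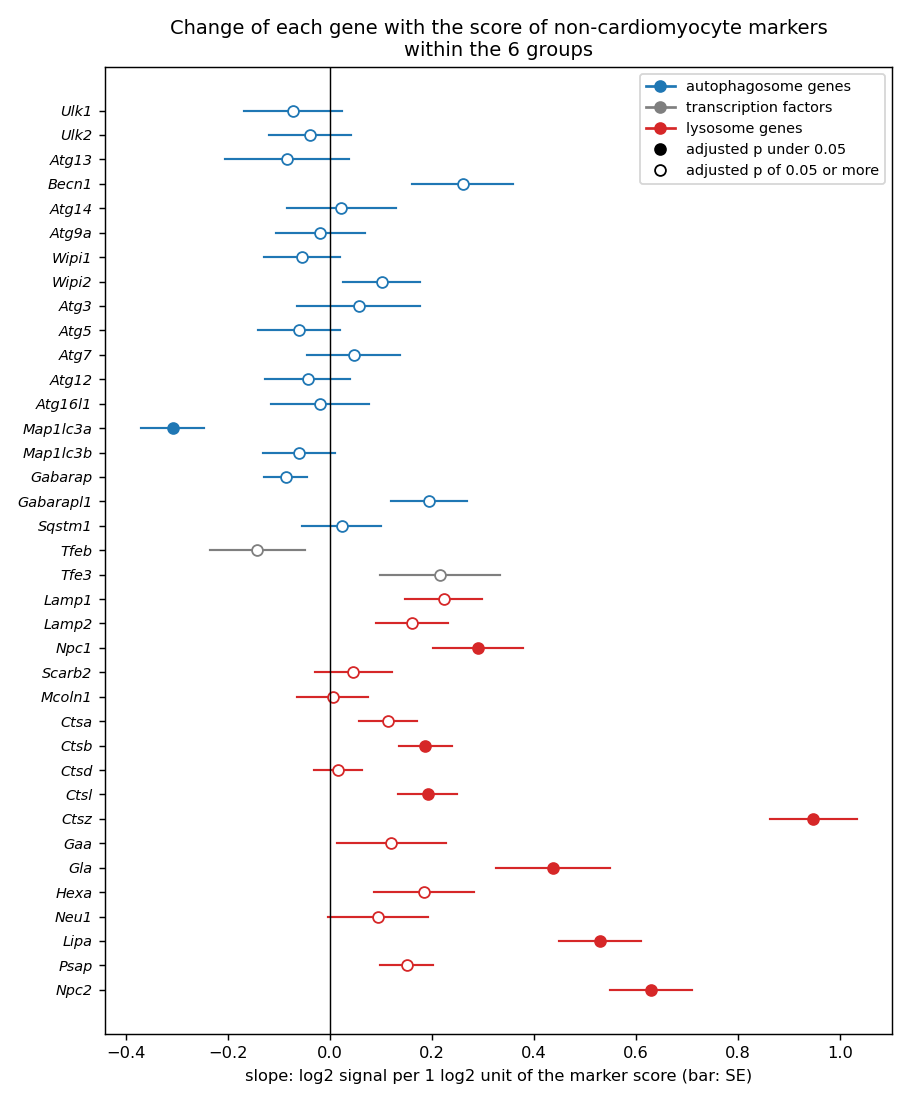
Slope of each gene's log2 signal on the score of macrophage, endothelial and fibroblast markers within the 6 groups (14 samples), with its SE; filled points have an adjusted p under 0.05. Ctsz, Npc2 and Lipa lie far right at 0.95, 0.63 and 0.53, Mcoln1, Ctsd and Scarb2 lie near 0, and Map1lc3a lies left at -0.31.

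With this score as a covariate, the lysosome median for the mean of the days was 0.08, with 13 of 17 genes positive, and the day medians were 0.05, 0.12, 0.06, 0.04 and 0.05 from day 1 to day 26. Ctsz, Npc2, Gla and Lipa had differences of -0.16, -0.12, -0.07 and -0.04 in that fit. Ctsl on day 3 kept its difference of 0.37 and was called (adjusted p = 0.0163), 1 of the 37 genes, in a fit that called 0.835% of all genes on day 3. Day 3 replicates 1 and 2 had the lowest marker scores of all samples, -0.618 and -0.72, against -0.255, -0.069 and -0.454 in sham. In those samples the lysosomal membrane proteins averaged 0.21 and 0.19 relative to the sham mean, the cathepsins 0.06 and -0.02, and the glycosidases and lipase 0.09 and 0.07. The luminal cofactors averaged -0.09 and -0.11 there, and 30 other lysosomal hydrolases, not among the 37 genes, -0.02 and -0.06.

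Wider lists of the pathway held 145 tested genes, none called in any comparison. For the mean of the days, 29 of 30 other lysosomal hydrolases had positive differences (median 0.17), among them the peptidase Tpp1 at 0.34 ± 0.10 (adjusted p = 0.293). Other lysosomal membrane genes were positive in 15 of 19 (median 0.14). The 16 genes of the vacuolar ATPase, the proton pump that acidifies the lysosome, were positive in 8 with a median of 0.04, although its accessory subunit Atp6ap1 differed by 0.24 ± 0.07 (adjusted p = 0.283). Of the other hydrolases, 15 of 30 also had a called positive slope on the marker score, against 13.9% of all genes. So did 4 of the 19 other lysosomal membrane genes, with slopes up to 1.38, and 3 of the 16 vacuolar ATPase genes.

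Other autophagosome genes (24, median 0.04), selective receptors (11, median 0.02), fusion factors (13, median -0.03) and genes of mTORC1 and AMPK signalling (27, median -0.00) lay near the median of all genes. Among them the protease Atg4a, which processes Atg8-family proteins, differed by -0.87 ± 0.22 on day 26 (adjusted p = 0.15), and the AMPK subunit Prkab1 by -0.53 ± 0.09 on day 26 (adjusted p = 0.0528). The fusion SNARE Stx17 differed by -0.24 ± 0.08 for the mean of the days (adjusted p = 0.336). The 5 other transcription regulators of autophagy had a median of 0.15 for the mean of the days, with 5 of 5 positive. On day 3 they averaged 0.21, 0.34 and 0.40 relative to the sham mean, above the sham samples at -0.05, 0.10 and -0.05. Zkscan3, a gene of this list reported in human cells as a repressor of autophagy genes, differed by 0.50 ± 0.09 on day 3 (adjusted p = 0.18).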

How the data were processed

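The authors deposited 1 table of log2 signals for 34760 probe sets on 15 arrays; MAS5 is named in the submitters' processing notes, and the log2 scale follows from the values (0.123 to 12.9). Array medians lay between 4.9 and 5.16 and were not rescaled; precision is limited by the small number of arrays. The probe annotation gave 1 symbol for 21640 probe sets, several for 1321 and none for 11799. A gene was represented by its single-symbol probe set with the highest mean, and 12102 genes with a mean above the median of all probe sets (5.00) were tested. Linear models (limma 3.58.1, R 4.3.3, with a mean-dependent prior variance in eBayes) were fitted to 14 samples in 6 groups (residual df 8). Contrasts set each proton day, and the mean of the days, against sham. Another contrast set days 12 and 26 against days 1 and 3, leaving out day 5. F-tests were also made, with Benjamini-Hochberg adjustment over all genes at 0.05. Values after ± are SEs. Tested on simulated data for day 3 minus sham, 86% of 200 genes given a log2 difference of 1 were recovered among 12102, with 14 false calls. That difference is larger than those reported for the 37 genes, and the simulated noise was independent between genes. Recovery of smaller differences was not tested. Among the 37 genes, per-sample values are given mainly for those with the lowest p in a comparison and for the best-known members of each role; from the wider lists, the lowest p per comparison decided. The 37 genes and all lists were chosen with earlier results of these data known. Deviations of same-numbered replicates from their group means had a median correlation of -0.083 over 26 pairs, 9 above 0.1. In groups of 2 samples these deviations mirror each other, so the pairs are not independent and cannot exclude pairing by number. The main fit used no pairing. Alternatives covered normalization, filters, probe-set choice, variance models, samples, a replicate block, the marker covariate and leaving out each sample.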

Additional observations from a re-analysis of the deposited data

How the results depend on the processing

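Under the alternative processing choices the lysosome median for the mean of the days stayed between 0.08 and 0.19, with 13 to 17 of 17 genes positive, and no gene was called, apart from 1 on day 3 and 1 in the F-test over all proton days with the marker covariate (Ctsl both times) and 1 on day 26 with array weights (Ctsd); those fits called 0.835%, 1.23% and 2.55% of all genes. Equal array medians gave an all-gene median of -0.05 on day 26, against 0.05 as deposited, and autophagosome medians of 0.05 on day 1, -0.11 on day 5, -0.18 on day 26 and -0.14 for late minus early. The autophagosome median on day 1 was 0.03 with day 1 sham only and 0.03 with the replicate block, and the lysosome median on day 1 was 0.05 with the marker covariate. Leaving out each sample gave autophagosome medians of -0.06 to 0.03 on day 1, -0.02 to 0.06 on day 3, -0.10 to -0.05 on day 5, -0.08 to 0.02 on day 12 and -0.07 to -0.03 on day 26, and lysosome medians of 0.00 to 0.32 on day 12. The count of lysosome genes with a called marker slope, tried under settings chosen after seeing the data, was 11 with equal array medians (19.5% of all genes) and 3 to 9 when each sample was left out (8.69% and 8.66% of all genes without a day 12 sample), against 13.9% of all genes in the fit reported.

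Signs of small mean differences turned in some settings. Quantile normalization gave Atg14 -0.02 and Atg16l1 -0.03; equal array medians gave Atg16l1 -0.02 and Sqstm1 -0.02; array weights gave Tfe3 0.05. Sham of day 1 only gave Becn1 0.01, Gla -0.00 and Ulk2 0.02. The replicate block, which changed no call, gave Atg7 -0.00, Ctsz -0.01, Gla -0.03 and Ulk2 0.01. The marker covariate gave Ctsz -0.16, Gla -0.07, Lipa -0.04 and Npc2 -0.12. Leaving out each sample gave -0.27 to 0.03 for Atg13, -0.01 to 0.09 for Atg14, -0.03 to 0.03 for Atg16l1, -0.14 to 0.12 for Atg3, -0.13 to 0.01 for Becn1, -0.00 to 0.19 for Gla, -0.03 to 0.08 for Sqstm1, -0.08 to 0.13 for Tfe3 and -0.07 to 0.02 for Ulk2. Without a sign change, it gave 0.21 to 0.46 for Gaa, 0.04 to 0.28 for Hexa, 0.08 to 0.26 for Lipa, 0.09 to 0.28 for Ctsz, 0.04 to 0.21 for Npc2 and 0.04 to 0.15 for Lamp1. The cause of these changes was not tested.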

Other observations

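Some further genes with the lowest p in their wider list are given here, none past the threshold. The phospholipase Pla2g15 differed from sham by 0.43 ± 0.11 on day 26 in limma (adjusted p = 0.147), and the glucosaminidase Naglu differed by 0.37 ± 0.08 between the late and the early proton days (adjusted p = 0.149). The Ragulator subunit Lamtor2 differed by 0.59 ± 0.15 on day 3 (adjusted p = 0.266), and the iduronidase Idua by 0.46 ± 0.12 on day 3 (adjusted p = 0.301).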
